A study of Mus musculus with 18 samples.

Results

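Expression of 10 genes induced by ERK signalling was compared between mouse breast tumours with and without p95HER2, all formed by the PB2 cancer cell line. The genes are the PEA3-group ETS transcription factors Etv1, Etv4 and Etv5, the early-response genes Egr1, Phlda1 and Ier3, the growth regulators Myc and Ccnd1, and the receptor genes Epha2 and Epha4. They were chosen by name, with earlier results of these data known, from a table of 54532 mouse genes. All 10 passed the filter on low counts that left 17123 genes for testing. The genotype label was p95HER2 for 8 tumours and EV, which the labels do not expand, for 10 tumours, and all 18 tumours came from mice on doxycycline diet DOX625. p95HER2 is a shortened HER2 receptor that lacks most of the extracellular part, and the series title speaks of its overexpression. PB2 is a single cell line, and the labels give neither the construct and promoter behind p95HER2 nor the strain, sex or age of the mice. Whether each tumour came from its own mouse is not stated, and the p-values reflect only how much these samples varied.

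ERK is the last kinase of the RAS, RAF, MEK cascade that receptor tyrosine kinases of the HER family switch on. Active ERK phosphorylates transcription factors and relieves repression of Etv1, Etv4 and Etv5 by the repressor Capicua (gene Cic), so the mRNAs of Etv4 and Etv5, with those of Phlda1, Ccnd1, Epha2 and Epha4, are widely used as a readout of the pathway. In the mammary gland, PEA3 factors act in branching of the epithelium, and they are known from HER2-driven mouse mammary tumours.

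The region upstream of a gene's start is where such regulators can bind, and the windows of 250 bases before the start are shown for 2 PEA3 factors and for Epha2, the 1 gene found with a Capicua octamer. RefSeq windows (build GRCm38.p6, the mm10 genome) were found for 5 of the 10 genes, Etv1, Etv5, Ier3, Epha2 and Epha4, in 7 windows, and not for Etv4, Egr1, Phlda1, Myc and Ccnd1. Each is printed from 5′ to 3′ on the gene's own strand, and capitals mark the ETS core GGAAG or its complement CTTCC, and the Capicua octamer. The Etv1 window is chr12:38779832-38780081 on the plus strand, the Etv5 window chr16:22438369-22438618 on the minus strand, before the more internal of its starts, and the Epha2 window chr4:141300971-141301220 on the plus strand. Another window of Etv1, chr12:38783461-38783710, and another of Etv5, chr16:22439571-22439820, held no ETS core and are not printed. The starts are those of RefSeq, and the printed Etv1 and Etv5 windows lie inside the gene spans given below.
Etv1: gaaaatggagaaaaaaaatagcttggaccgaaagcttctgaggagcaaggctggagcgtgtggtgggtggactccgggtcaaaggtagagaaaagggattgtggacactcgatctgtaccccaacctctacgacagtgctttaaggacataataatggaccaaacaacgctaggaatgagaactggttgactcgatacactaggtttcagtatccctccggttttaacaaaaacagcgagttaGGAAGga
Etv5: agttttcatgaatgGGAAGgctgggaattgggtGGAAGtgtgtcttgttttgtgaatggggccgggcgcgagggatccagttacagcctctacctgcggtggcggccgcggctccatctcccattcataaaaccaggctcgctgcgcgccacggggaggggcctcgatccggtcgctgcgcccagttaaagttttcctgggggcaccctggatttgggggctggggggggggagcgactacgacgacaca
Epha2: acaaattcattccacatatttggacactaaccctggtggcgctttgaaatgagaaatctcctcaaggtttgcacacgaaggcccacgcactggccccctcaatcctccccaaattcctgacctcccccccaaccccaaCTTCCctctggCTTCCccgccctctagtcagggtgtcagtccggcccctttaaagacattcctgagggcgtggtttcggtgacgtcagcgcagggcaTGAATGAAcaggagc
Both strands were searched for the octamers TGAATGAA, TGAATGGA, TCAATGAA and TCAATGGA, for the long ETS site CCGGAAGT, which contains the core, for the AP-1 site TGANTCA, for the E-box CACGTG and for the CArG box bound by serum response factor. The Epha2 window held 1 octamer, beginning 15 bases before the start, against 3.19% of 32851 mouse windows with any. The core was in 5 of the 7 windows of these genes and in 64.1% of all windows. The long ETS site, the AP-1 site, the E-box and the CArG box were in none of the 7, and in 2.88%, 6.75%, 6.02% and 1.47% of all windows. A match describes letters in the window and not a bound site.

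Library totals were 32686558 to 34804640 counts in p95HER2 tumours and 35030920 to 38464541 in EV tumours, so group and depth cannot be told apart. The tag numbers in the sample titles also run with the group, with no overlap, and their part was not tested. Reads of mouse Erbb2, which encodes HER2, stood at 122 to 231 CPM (read counts scaled to a common library size with TMM factors) in p95HER2 tumours and at 60.3 to 74.8 CPM in EV tumours. Every library thus matched its label at this gene. The construct is not described, so reads counted as mouse Erbb2 may hold only part of those from p95HER2, and this limits every Erbb2 value given here. In these reads, the log2 fold change was 1.22 (SE 0.10, edgeR adjusted p = 2.889e-07). Of the 5 luminal epithelial markers, Epcam, Krt8, Krt18 and Cldn7 averaged 659, 549, 315 and 52.9 CPM in p95HER2 tumours and 638, 582, 292 and 45.2 CPM in EV tumours, and none of these 4 was called. The fifth, the keratin gene Krt19, fell to 61.9 ± 22.2 CPM in p95HER2 tumours, against 142 ± 35.5 CPM in EV tumours (edgeR adjusted p = 0.0018). Levels of 7 of 12 marker lists for other cell types or epithelium differed between the groups (two-sided exact permutation tests over 43758 assignments, adjusted over the 12 lists), with the neutrophil level higher in p95HER2 tumours and the macrophage, T cell, B cell, adipocyte, keratinocyte and glial levels lower. The neutrophil and glial lists did not move as a whole. Of the 4 neutrophil markers tested, 1 rose and 1 fell, with log2 fold changes from -0.67 to 1.91. Of the 5 glial markers none was called, and 2 fold changes were positive and 3 negative. Of the 8 macrophage markers 5 fell, and their summed level was 318 to 768 CPM in p95HER2 tumours and 528 to 1150 CPM in EV tumours, with none of the 8 at 0. The summed level of 6 skeletal muscle markers ran from 262 to 2620 CPM in p95HER2 tumours and from 87.9 to 5147 CPM in EV tumours.

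Of the 10 genes, Etv4 alone was called, at a Benjamini-Hochberg adjusted p under 0.05 in edgeR's quasi-likelihood test over all genes tested. It rose 1.19-fold in p95HER2 tumours. Being 1 call in 10, this is near the background, since 10.2% of all genes tested were called, 5.73% as higher and 4.45% as lower. Fitted fold changes of 7 genes were positive and of 3 negative, with a median of 0.22 on the log2 scale, against -0.01 over all genes tested. The median size of change without regard to sign was 0.24 on the log2 scale for these 10 and 0.11 for all genes. Before adjustment 7 of the 10 had p under 0.05, 5 of them higher and 2 lower, beside 26.3% of all genes. Because the 10 genes were chosen with earlier results of these data known, these values beside all genes are a description and no test of the set. No gene of the 10 had groups whose CPM did not overlap, and 0.788% of all genes tested did. DESeq2 called 4 of the 10 as higher, Etv1, Etv4, Etv5 and Epha2, at a background of 7.24% higher calls, of 6.59% lower calls and of 13.8% calls in all. The tumours are bulk samples, in which fewer cells of a type and less RNA per cell cannot be told apart.

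**Figure D1:**
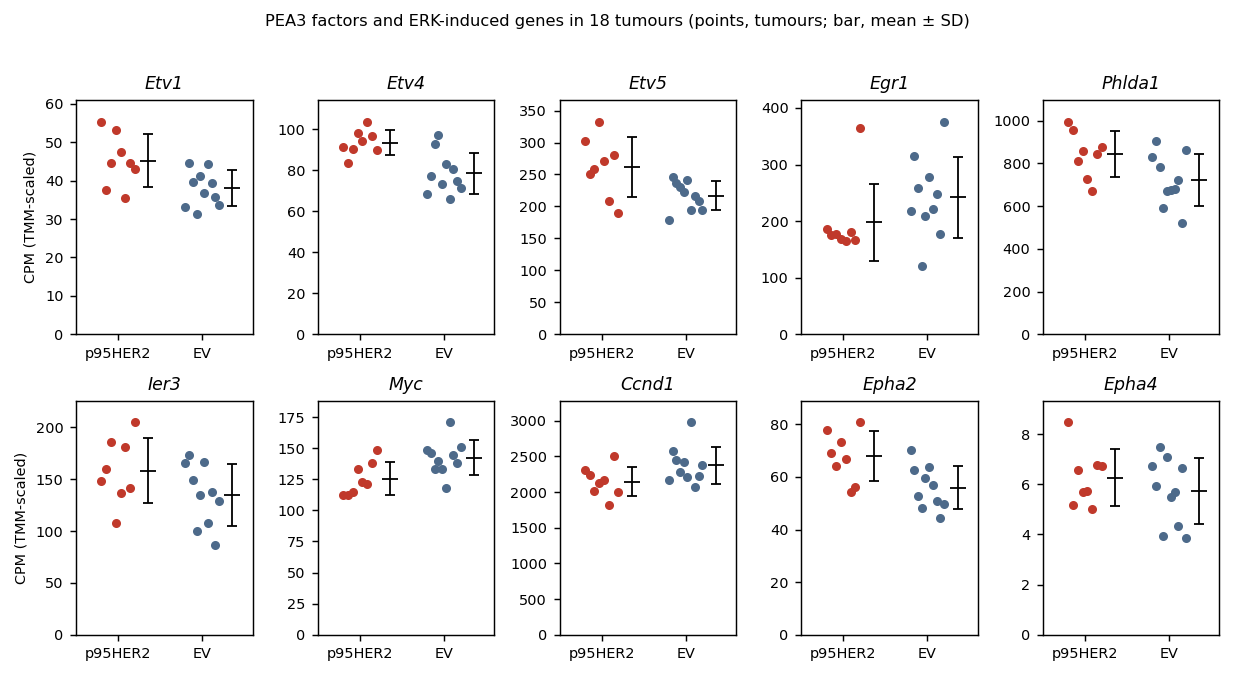
CPM of each of the 10 genes in every tumour, p95HER2 (8, red) left of EV (10, blue), with black bars for the mean and SD. The groups overlap for all 10 genes, and for Etv4 all 8 p95HER2 points, from 83.3 to 104 CPM, lie above the EV median of 75.9 CPM.

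Among the PEA3 factors, Etv4 (chromosome 11, 101769742 to 101785371, minus strand, mm10) was at 83.3, 92.8 and 104 CPM (lowest, median, highest) in p95HER2 tumours and at 66.0, 75.9 and 97.2 CPM in EV tumours. All 8 p95HER2 tumours stood above the EV median, and 8 of the 10 EV tumours stood below the lowest p95HER2 tumour, while EV 3 and EV 4 lay within the p95HER2 range. The means were 93.45 ± 6.19 CPM in p95HER2 tumours (SD, n = 8) and 78.4 ± 10.2 CPM in EV tumours (SD, n = 10), a log2 fold change of 0.25 (SE 0.07, edgeR adjusted p = 0.0199). Etv4 encodes the founding member of the PEA3 group. Its call held in each of 18 fits that left out 1 tumour (edgeR adjusted p up to 0.0391).

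The Etv4 call ended with either of 2 marker levels as a covariate. With the immune level, an average over macrophage, T cell, B cell and neutrophil lists, its log2 fold change was 0.26 and the edgeR adjusted p 0.127, in a fit that called 309 genes in place of 1743. With the luminal epithelial level the log2 fold change was 0.20 (edgeR adjusted p = 0.0735). Beside this, the macrophage list level, a mean of log2(CPM + 0.5), was 5.42 ± 0.35 in p95HER2 tumours and 6.07 ± 0.34 in EV tumours (exact permutation test, adjusted p = 0.0053), and the B cell list averaged -0.30 ± 0.20 in p95HER2 and 0.08 ± 0.18 in EV tumours (exact permutation test, adjusted p = 0.000823). The B cell markers were scarce, and only 2 of the 5 passed the filter on low counts. Their summed level was 0.704 to 3.16 CPM in p95HER2 tumours and 2.71 to 7.94 CPM in EV tumours. The T cell level was 1.16 ± 0.64 in p95HER2 tumours and 2.08 ± 0.79 in EV tumours, and the neutrophil level 1.64 ± 0.23 in p95HER2 tumours and 1.30 ± 0.28 in EV tumours (exact permutation tests, adjusted p = 0.0319 for each). For the luminal list these levels were 7.67 ± 0.14 in p95HER2 tumours and 7.84 ± 0.18 in EV tumours (exact permutation test, adjusted p = 0.0572), and Krt19, given above, was the 1 marker of that list that was called. The immune lists differ between the groups themselves, and the part of either covariate in the Etv4 result was not tested further. Within 2 Mb of Etv4, 110 other genes were tested, and their median log2 fold change was 0.02, with 5 higher and 2 lower.

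Etv5 (chromosome 16, 22381309 to 22439719, minus strand), which with Etv4 acts downstream of fibroblast growth factor and RET receptors in kidney and lung branching, was at 190.5, 264.5 and 332.8 CPM (lowest, median, highest) in p95HER2 tumours and at 178, 219.5 and 245 CPM in EV tumours. In 6 of 8 p95HER2 tumours it exceeded every EV tumour, while p95HER2 6 and p95HER2 8, at 208.6 and 190.5 CPM, lay below the EV median. Its log2 fold change of 0.27 (SE 0.09) did not pass the threshold (edgeR adjusted p = 0.061). Without p95HER2 6 or without p95HER2 8 it passed, with edgeR adjusted p = 0.0294 and 0.0119. With the immune covariate its log2 fold change was 0.14 (edgeR adjusted p = 0.592), and with the luminal covariate 0.19 (edgeR adjusted p = 0.238). The coefficient of variation was 17.8% in p95HER2 tumours and 10.5% in EV tumours for Etv5, and 6.62% in p95HER2 tumours and 12.96% in EV tumours for Etv4.

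Etv1 (chromosome 12, 38779380 to 38870484, plus strand), the third PEA3 factor, was at 35.5, 44.5 and 55.35 CPM in p95HER2 tumours and at 31.2, 38.2 and 44.6 CPM in EV tumours (lowest, median, highest). The 3 highest tumours were p95HER2 1, p95HER2 4 and p95HER2 5, and p95HER2 2 and p95HER2 6 lay below the EV median. Its log2 fold change was 0.25 (SE 0.09, edgeR adjusted p = 0.0712). The 95% intervals of the fold changes were 1.06 to 1.34 for Etv1, 1.09 to 1.31 for Etv4 and 1.07 to 1.37 for Etv5. The 3 intervals cover each other's estimates, and no difference among the 3 genes was tested.

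**Figure D2:**
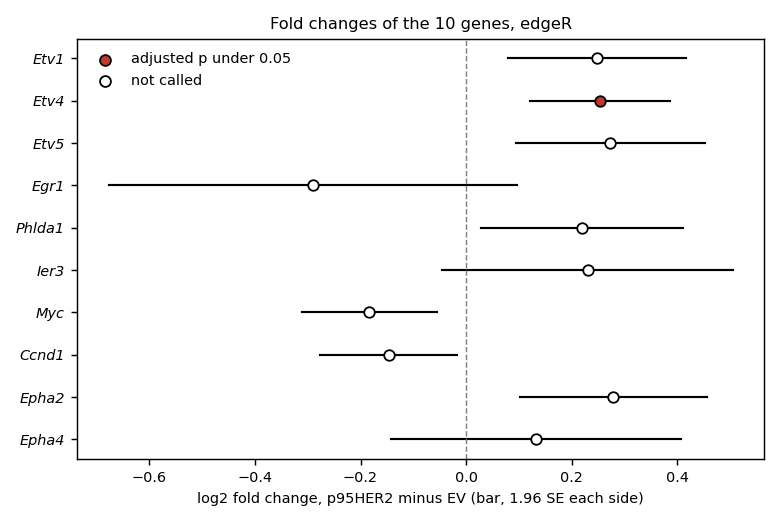
Log2 fold change of each gene, p95HER2 minus EV, from edgeR over 18 tumours, with bars for the 95% interval and a filled point for an adjusted p under 0.05. Etv4 is filled at 0.25, and the open points of Etv1, Etv5, Phlda1, Ier3 and Epha2 lie between 0.22 and 0.28.

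Epha2 (chromosome 4, 141301240 to 141329384, plus strand), a receptor tyrosine kinase that binds ephrin-A ligands and a known ERK target, was at 54.5, 67.9 and 80.9 CPM in p95HER2 tumours and at 44.5, 54.95 and 70.25 CPM in EV tumours (lowest, median, highest). Of the p95HER2 tumours 7 of 8 stood above the EV median and 3 above every EV tumour, p95HER2 8, 1 and 4. The log2 fold change of 0.28 (SE 0.09) was the largest in size of the 7 positive ones and missed the threshold narrowly (edgeR adjusted p = 0.054). It passed in 7 of 27 alternatives. These were the luminal epithelial level as a covariate, at 0.40 and an edgeR adjusted p of 0.00657, voom with quality weights (limma adjusted p = 0.0255), DESeq2, and the fits without EV 1, EV 6, p95HER2 6 or p95HER2 7. With the immune covariate the log2 fold change of Epha2 was 0.23 (edgeR adjusted p = 0.365), and with the skeletal muscle covariate 0.22 (edgeR adjusted p = 0.0897). Epha4 (chromosome 1, 77367185 to 77515088, minus strand), a related receptor that binds ephrins of both classes, was the scarcest gene, with 143 to 292 raw counts per tumour. It was at 5.00, 6.15 and 8.48 CPM in p95HER2 tumours and at 3.87, 5.83 and 7.496 CPM in EV tumours (lowest, median, highest). The groups overlapped between 5.00 and 7.496 CPM, with p95HER2 1 above all EV tumours and EV 4, EV 8 and EV 10 below all p95HER2 tumours. The interval of the fold change ran from 0.906 to 1.33 (edgeR adjusted p = 0.595).

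Phlda1 (chromosome 10, 111506286 to 111508645, plus strand), a pleckstrin homology-like protein induced by growth factors, was at 672, 850 and 995 CPM in p95HER2 tumours and at 523, 699 and 906 CPM in EV tumours (lowest, median, highest). In 7 of 8 p95HER2 tumours it exceeded the EV median, and EV 2 and EV 10 exceeded the p95HER2 median. Its log2 fold change was 0.22 (SE 0.10, edgeR adjusted p = 0.157), and 0.02 with the immune level as a covariate (edgeR adjusted p = 0.939). The noncoding gene Gm28592, on the opposite strand, overlaps Phlda1 and had 2859 to 6362 counts, against at least 19206 for Phlda1, and the sources used here do not say whether counting used strand. Ier3 (chromosome 17, 35821684 to 35822923, plus strand), an immediate early gene whose protein protects cells from apoptosis, was at 108, 154 and 205 CPM in p95HER2 tumours and at 86.5, 136 and 173 CPM in EV tumours. The fold change interval of Ier3 ran from 0.969 to 1.42 (edgeR adjusted p = 0.316).

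Egr1 (chromosome 18, 34859823 to 34864984, plus strand), a zinc finger factor switched on within minutes of ERK activation, had the widest spread of the 10 genes. It was at 164, 177 and 364 CPM in p95HER2 tumours and at 121, 235 and 376 CPM in EV tumours (lowest, median, highest). In 7 p95HER2 tumours it lay between 164 and 185 CPM, where 2 of the 10 EV tumours lay at or below 185 CPM, and p95HER2 8 stood at 364 CPM. The log2 fold change was -0.29 (SE 0.20, edgeR adjusted p = 0.375), and -0.47 without p95HER2 8 (edgeR adjusted p = 0.0714). No alternative called Egr1.

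Myc (chromosome 15, 61985391 to 61990374, plus strand), a transcription factor of growth and ribosome production, was at 113, 122 and 148 CPM in p95HER2 tumours and at 118, 142 and 171 CPM in EV tumours (lowest, median, highest). Of the p95HER2 tumours 7 of 8 lay below the EV median, and p95HER2 8 above it. Its log2 fold change of -0.18 (SE 0.06) did not pass (edgeR adjusted p = 0.0748). It passed in 3 of 27 alternatives, without p95HER2 8, without EV 6 and with the skeletal muscle level as a covariate (edgeR adjusted p = 0.0271, 0.034 and 0.0365). With the immune covariate the log2 fold change of Myc was -0.14 (edgeR adjusted p = 0.419), and with the luminal covariate -0.13 (edgeR adjusted p = 0.24). Ccnd1 (chromosome 7, 144929931 to 144939925, minus strand), which encodes the G1 cyclin D1, was at 1826, 2145 and 2505 CPM in p95HER2 tumours and at 2073, 2334 and 2984 CPM in EV tumours. In 7 of 8 p95HER2 tumours, all except p95HER2 7, Ccnd1 lay below the EV median, and its log2 fold change was -0.15 (SE 0.07, edgeR adjusted p = 0.16). The 95% interval of the Ccnd1 fold change ran from 0.826 to 0.988. Ccnd1 overlaps a gene on the opposite strand, LTO1, with 2445 to 3986 counts, against at least 60932 for Ccnd1.

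**Figure D3:**
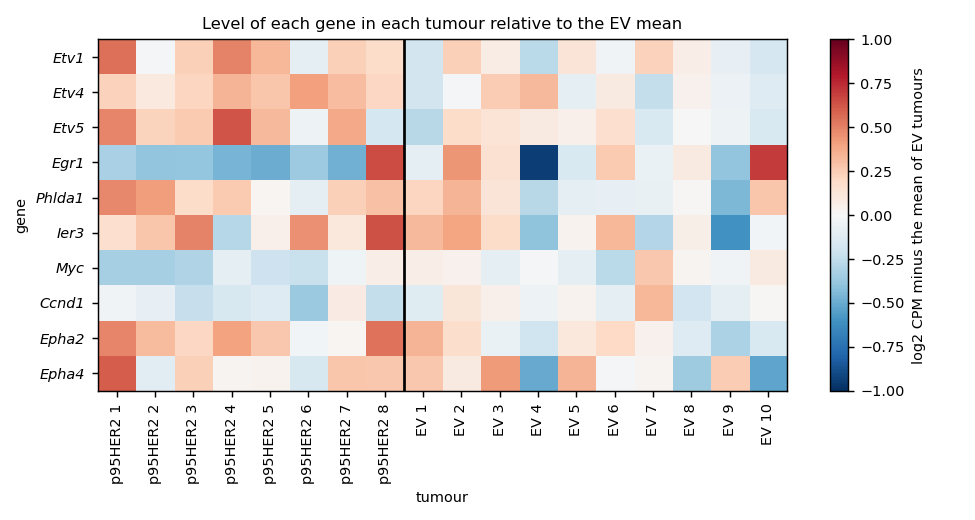
Log2 CPM of each gene in each tumour minus the gene's mean over EV tumours, with p95HER2 tumours left of the black line and EV tumours right of it. Etv4 is above the EV mean in all 8 p95HER2 tumours, while Egr1 is low in 7 of them and high in p95HER2 8.

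The number of the 10 genes above their EV median differed widely within each group. It was 2 in p95HER2 6, 5 to 7 in 5 of the p95HER2 tumours, and 8 in p95HER2 7 and p95HER2 8. Among EV tumours it ran from 1 in EV 9 to 10 in EV 2. No p95HER2 tumour had all 10 genes above the EV median.

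Per length of annotated exons the genes spanned a wide range of levels, by their mean over all 18 tumours in the order Ccnd1, Phlda1, Ier3, Etv5, Myc, Egr1, Etv4, Epha2, Etv1 and Epha4. As RPKM, reads per kilobase of exon scaled like CPM, Ccnd1 was at 456 ± 44.3 in p95HER2 tumours and 505 ± 55.3 in EV tumours (SD, n = 8 and 10). Etv5, Myc and Egr1, next to each other in the order, overlapped over the 18 tumours: Etv5 exceeded Myc in 12 of 18 tumours, and Myc exceeded Egr1 in 12 of 18. Their RPKM averaged 63.8, 46.2 and 44.1 in p95HER2 tumours and 52.8, 52.4 and 54.0 in EV tumours, so in EV tumours Egr1 had the highest mean of these 3. Among the PEA3 factors, the RPKM of Etv5 was 63.8 ± 11.3 in p95HER2 tumours and 52.8 ± 5.54 in EV tumours, that of Etv4 30.1 ± 1.99 in p95HER2 and 25.3 ± 3.27 in EV tumours, and that of Etv1 3.39 ± 0.52 in p95HER2 and 2.86 ± 0.35 in EV tumours. The 13296 bases of annotated Etv1 exons join many isoforms, so its RPKM depends on which exons are counted. Epha4, at 0.778 ± 0.14 in p95HER2 tumours and 0.711 ± 0.16 in EV tumours, was below Etv1 in every tumour.

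Other genes of the pathway, from 11 lists with 159 tested genes, included 14 that rose and 7 that fell, beside 5.73% higher and 4.45% lower among all genes, and their median log2 fold change was 0.01. The lists too were chosen with earlier results of these data known. With the immune covariate 5 of these 21 calls were left, Elk3, Spred2, Spred3, Mmp13 and Plau. The log2 fold changes of Fosl1, Phlda2, Cdkn1a, Ksr1 and Gab1, no longer called there, were 1.90, 0.40, -0.29, -0.27 and -0.35 with that covariate, against 1.85, 0.40, -0.32, -0.28 and -0.29 without it. Those of Spred1, Ephb4, Icam1 and Spi1 were 0.09, 0.08, -0.05 and -0.20 with it, against 0.20, 0.30, -0.55 and -0.69 without it. With the luminal covariate Ptpn11, Gab1 and Efna2 were no longer called (edgeR adjusted p = 0.0514, 0.254 and 0.122), and with the skeletal muscle covariate Ksr1, Ephb4 and Icam1 were not (edgeR adjusted p = 0.0877, 0.0602 and 0.0503). Proteins that repress or degrade PEA3 factors gave no call among 8 genes: the Capicua gene Cic was at 162 ± 11.1 CPM in p95HER2 tumours and 176 ± 13.7 CPM in EV tumours (edgeR adjusted p = 0.142), and that of its partner Atxn1 at 48.6 ± 4.56 CPM in p95HER2 and 42.8 ± 4.31 CPM in EV tumours (edgeR adjusted p = 0.0697). Of 19 other ETS factors, Elk3, a partner of serum response factor, rose to 75.6 ± 5.31 CPM in p95HER2 tumours, against 60.9 ± 4.61 CPM in EV tumours (edgeR adjusted p = 0.00061). The blood cell and endothelial factor Fli1 fell by 0.60 and the myeloid factor Spi1 by 0.69 in log2 units, and the Spi1 call ended without p95HER2 1 or without p95HER2 2 (edgeR adjusted p up to 0.055). Macrophage markers, given above, were lower in p95HER2 tumours, and their part in the fall of Spi1 was not tested beyond the immune covariate, which ended both calls (edgeR adjusted p = 0.167 for Fli1 and 0.457 for Spi1).

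In the kinase cascade itself none of 21 genes rose and 3 fell, the phosphatase gene Ptpn11, the scaffold gene Ksr1 and the adaptor gene Gab1, by 0.37, 0.28 and 0.29 on the log2 scale. The Gab1 and Ksr1 calls ended in 12 and 11 of the 18 leave-one-out fits (edgeR adjusted p up to 0.0898 and 0.0808). Among 11 feedback genes, whose products damp the cascade, Spred1, Spred2 and Spred3 rose and none fell, and all 11 fold changes were positive with a median of 0.20, beside 8175 positive ones among the 17123 genes tested. The other 8 were not called, with log2 fold changes from 0.03 for Spry2 to 0.29 for Il17rd (edgeR adjusted p = 0.802 and 0.133), and Dusp6 was at 0.08. Spred3 was at 15.8 ± 1.95 CPM in p95HER2 tumours and 10.7 ± 1.29 CPM in EV tumours, a log2 fold change of 0.56 (SE 0.09, edgeR adjusted p = 0.000443). Of 29 immediate early genes, the AP-1 subunit gene Fosl1 rose, with a log2 fold change of 1.85 (SE 0.42), and none fell, with a list median of -0.07. Fosl1 was scarce, at 4.61 ± 3.06 CPM in p95HER2 tumours and 1.28 ± 1.254 CPM in EV tumours (edgeR adjusted p = 0.0101). With the immune covariate its log2 fold change was 1.90 (edgeR adjusted p = 0.0546).

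Of 10 tested genes described as targets of PEA3 factors, Mmp13, Spp1 and Plau rose and Icam1 fell. Mmp13, a collagenase gene, was at 16.7 ± 7.74 CPM in p95HER2 tumours and 5.198 ± 2.55 CPM in EV tumours, and Spp1, which encodes osteopontin, at 965 ± 436 CPM in p95HER2 and 395 ± 174 CPM in EV tumours (edgeR adjusted p = 0.00302 and 0.00877). Plau, the urokinase gene, rose by 0.58 on the log2 scale. The adhesion gene Icam1 fell by 0.55, a call that ended in 10 of 18 fits with 1 tumour left out (edgeR adjusted p up to 0.0704) and with the immune covariate (edgeR adjusted p = 0.855). The Spp1 fold change was 0.60 on the log2 scale with that covariate, against 1.29 without it (edgeR adjusted p = 0.161 with it). The list median was 0.14.

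Of 17 other Eph receptor and ephrin genes 4 rose and none fell, the ephrin genes Efna2, Efna4 and Efna5 and the receptor gene Ephb4. Efna5, a ligand of EphA receptors, was at 57.9 ± 7.32 CPM in p95HER2 tumours and 40.0 ± 8.60 CPM in EV tumours, a log2 fold change of 0.53 (SE 0.11, edgeR adjusted p = 0.00684). The Efna2 call ended without EV 5, EV 9 or p95HER2 1, 2 or 7 (edgeR adjusted p up to 0.07), and the Ephb4 call without p95HER2 1, 4 or 7 (edgeR adjusted p up to 0.0615). With the immune covariate none of the 4 was called. Around Myc, none of 12 genes of its dimerization network and none of 16 of its target genes was called by edgeR, with list medians of -0.04 and -0.02. Nearest to the threshold were Max and Mlx in the network (edgeR adjusted p = 0.104 and 0.359) and the ribosome assembly gene Bop1 and the spermidine synthase gene Srm among the targets (edgeR adjusted p = 0.0543 and 0.0928). Bop1, with a log2 fold change of -0.13, was called in 6 of 27 alternatives, DESeq2 among them (DESeq2 adjusted p = 0.036). Of 14 genes of the cyclin D and RB pathway, the inhibitor gene Cdkn2b rose by 0.44 on the log2 scale and Cdkn1a, which encodes p21, fell. Cdkn1a was at 294 ± 43.2 CPM in p95HER2 tumours, against 366 ± 34.6 CPM in EV tumours (edgeR adjusted p = 0.0134). Of the 2 relatives of Phlda1, Phlda2 rose by 0.40 on the log2 scale (SE 0.10, edgeR adjusted p = 0.012) and Phlda3 was at -0.09.

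**Figure D4:**
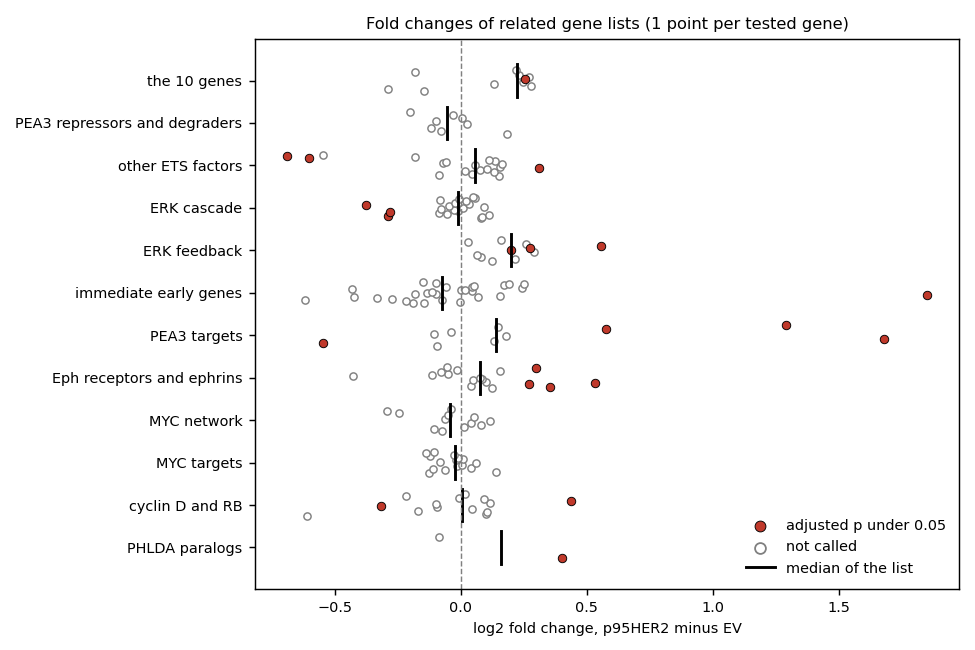
Log2 fold change of every tested gene of the 10 genes and 11 related lists, p95HER2 minus EV, with called genes filled and the list median as a black bar. The Fosl1, Mmp13 and Spp1 points lie above 1, and the median bar of the 10 genes stands at 0.22.

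Relations between tumours of the same group were computed for 32 pairs of a gene and a group, as correlations of log2(CPM + 0.5), and 1 passed after adjustment over the 32. This was Egr1 with Fos in EV tumours (n = 10, Pearson r = 0.93, permutation p = 9e-05, adjusted 0.00288, Spearman rho = 0.93, permutation p = 0.00038, adjusted 0.0122), and r was 0.91 without the 2 tumours farthest from the Egr1 median. In p95HER2 tumours the same pair had r = 0.91 (n = 8, exact permutation p = 0.0216, adjusted 0.186) and rho = 0.55 (exact permutation p = 0.171, adjusted 0.497), and r was 0.51 without the 2 farthest, among them p95HER2 8. Etv4 and Etv5 had r = 0.72 and rho = 0.75 in EV tumours (permutation p = 0.0201 and 0.0171, adjusted 0.186 and 0.137), and r = 0.06 and rho = 0.38 in p95HER2 tumours (exact permutation p = 0.889 and 0.36, adjusted 0.929 and 0.677). Without the 2 tumours farthest from the Etv4 median, r of that pair was 0.69 in p95HER2 tumours and 0.80 in EV tumours. Etv1 and Etv5 had r = 0.74 and rho = 0.88 in p95HER2 tumours (exact permutation p = 0.0346 and 0.00724, adjusted 0.186 and 0.114), and r = 0.31 and rho = 0.42 in EV tumours (permutation p = 0.382 and 0.232, adjusted 0.68 and 0.535), and r was 0.61 in p95HER2 tumours and 0.37 in EV tumours without the 2 farthest. Neither pair passed the adjustment, and the difference between the groups was not tested.

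**Figure D5:**
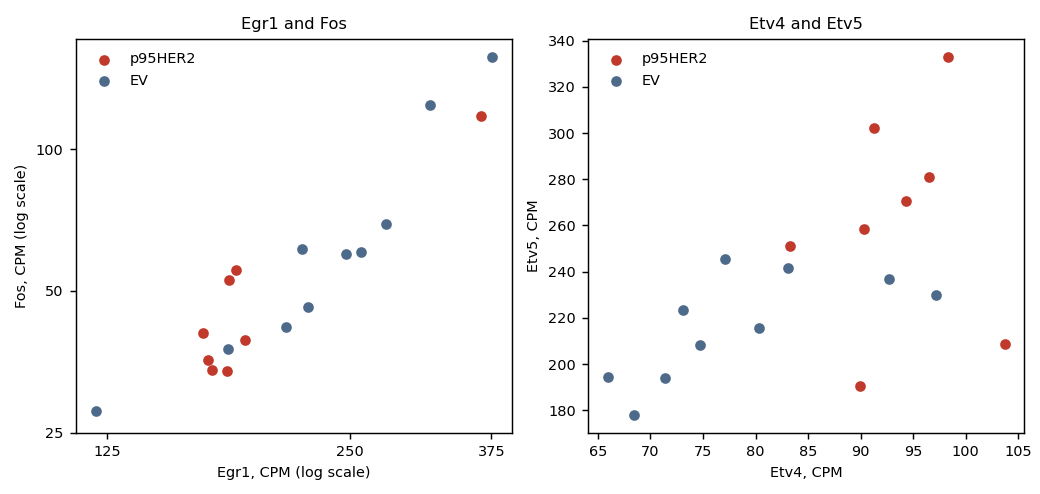
CPM of Fos against Egr1 on log axes (left) and of Etv5 against Etv4 (right), 1 point per tumour, p95HER2 red and EV blue. Fos and Egr1 are highest together in EV 10, at 157 and 376 CPM, and in the p95HER2 group p95HER2 8 stands apart, at 117 and 364 CPM.

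None of the 10 genes had a relation with the Erbb2 level that passed the adjustment in either group, at 8 and 10 tumours. Egr1 had r = 0.75 and rho = 0.74 with Erbb2 in p95HER2 tumours (n = 8, exact permutation p = 0.0291 and 0.0458, adjusted 0.186 and 0.244). Without the 2 tumours farthest from the Erbb2 median, r was 0.11. That step also narrows the Erbb2 range, so it cannot tell what the relation rests on. In EV tumours Egr1 had r = -0.35 and rho = -0.41 with Erbb2 (n = 10, permutation p = 0.321 and 0.248, adjusted 0.68 and 0.535). Ccnd1 had r = -0.72 and rho = -0.86 with Erbb2 in p95HER2 tumours (n = 8, exact permutation p = 0.0454 and 0.0107, adjusted 0.186 and 0.114), and r = -0.62 without the 2 farthest. The sign was the same in EV tumours, with r = -0.63 and rho = -0.58 (n = 10, permutation p = 0.0515 and 0.0866, adjusted 0.186 and 0.346), and r = -0.14 without the 2 farthest. Etv4 had r = 0.20 and rho = 0.05 with Erbb2 in p95HER2 tumours (exact permutation p = 0.634 and 0.935, adjusted 0.865 and 0.977), and r = 0.22 without the 2 farthest.

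The genes most like Egr1 in level among 10637 well expressed genes, after each group was centred on its own mean, were Fos, Jun, Egr2, Ier2 and Btg2, with r of 0.93, 0.93, 0.92, 0.90 and 0.89 over 18 tumours. All 5 are themselves immediate early genes. Each of them was highest in p95HER2 8 among p95HER2 tumours and in EV 10 among EV tumours: Jun, for example, was at 474 CPM in p95HER2 8 and at 192 to 228 CPM in the other p95HER2 tumours. None of the 5 was called between the groups, with edgeR adjusted p from 0.358 to 0.803, and without p95HER2 8 Ier2 was called, as lower (edgeR adjusted p = 0.043). Those most like Etv4 were Tmem132a, Moxd1, Traf7, Fbp1 and Aspscr1, with r of 0.88, 0.88, 0.85, 0.81 and 0.81. In the same order, r was 0.71, 0.53, 0.82, 0.59 and 0.996 within p95HER2 tumours and 0.97, 0.95, 0.86, 0.88 and 0.78 within EV tumours. Moxd1 also rose between the groups, to 40.9 ± 5.45 CPM in p95HER2 tumours, against 20.5 ± 5.37 CPM in EV tumours (edgeR adjusted p = 0.000247), and Tmem132a rose by 0.27 on the log2 scale (edgeR adjusted p = 0.0117, and 0.0513 with the luminal covariate). Traf7, Fbp1 and Aspscr1 did not pass (edgeR adjusted p = 0.842, 0.849 and 0.897).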

How the data were processed

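RNA was sequenced from 18 tumours (8 p95HER2, 10 EV) as directional mRNA libraries, per the labels' protocols. The deposited table holds the authors' raw read counts, by Ensembl identifier and tumour, and the submitters' processing notes name STAR 2.5, HTSeq 0.6.1 and mm10. Annotation and strand setting: not given in the sources used here. Even the most alike pair of libraries differed beyond sampling noise (chi-square of 9.53 per degree of freedom), so all were kept. Symbols were found for 54409 of 54532 identifiers, and coordinates come from GENCODE M21 on mm10.

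Genes were kept by filterByExpr (minimum count 10, minimum total 15), scaled by TMM and tested p95HER2 minus EV with edgeR 4.0.16 (R 4.3.3), robust quasi-likelihood, with Benjamini-Hochberg adjustment over 17123 genes, after tests on simulated data. Alternatives were RLE scaling, library totals, other filters, DESeq2 1.42.0, limma 3.58.1 voom with quality weights, 3 marker levels as covariates and each tumour left out. Correlations used exact permutations at 8 tumours and 100000 resamples at 10. Named genes were the 10 genes, Erbb2, at most 4 called genes per related list or the 2 nearest the threshold, and the 5 genes most like Etv4 and Egr1 among genes whose mean log2 CPM reached 3. Phlda3, the luminal markers and the neighbouring and overlapping genes were examined or named after their values were seen. The 10 genes and the lists were chosen with earlier results of these data known.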

Additional observations from a re-analysis of the deposited data

Results flagged for a closer look

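Among 48 genes named by rule, 96 sets of values (a gene in the tumours of a group) were examined for a highest or lowest tumour far from the rest, and 11 were found (11.5%). Chance gives about 1 in 20 for a single set. The sets are not independent, since the genes most like Egr1 were chosen for their correlation with it. In p95HER2 tumours those genes were highest in the same tumour as Egr1. The 11.5% therefore cannot be set against the chance figure, and an excess over chance was not tested. The measure is the gap to the nearest tumour as a share of the group's whole range of log2(CPM + 0.5).

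Egr1 had the widest gap. It stood at 364 CPM in p95HER2 8 and at 164 to 185 CPM in the other p95HER2 tumours, a share of 0.849. The 5 genes most like Egr1, chosen for their correlation with it, were also highest in p95HER2 8. They stood there at 117 CPM for Fos (others 33.8 to 55.3, share 0.606), 474 CPM for Jun (others 192 to 228, share 0.807), 18.1 CPM for Egr2 (others 8.55 to 11.6, share 0.598), 180.4 CPM for Ier2 (others 95.8 to 118, share 0.667) and 109 CPM for Btg2 (others 52.2 to 69.6, share 0.61). Fosl1 stood at 4.79 CPM in EV 1, against 0.584 to 1.41 CPM in the other EV tumours (share 0.644). Gab1 stood at 84.2 CPM in EV 1, against 50.3 to 64.8 CPM in the other EV tumours (share 0.509). Efna4 stood at 23.96 CPM in p95HER2 4, against 18.1 to 20.1 CPM in the other p95HER2 tumours (share 0.623). The lowest values were those of Cdkn1a in EV 9, at 292 CPM against 343 to 405 CPM (share 0.488), and of Phlda2 in EV 7, at 5.98 CPM against 8.05 to 10.6 CPM (share 0.519).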

How the results depend on the processing

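The direction of all 10 genes held in each of 27 alternatives. The call of Etv4 held in 25, all except the immune and luminal covariates. Members of the set of 10 called numbered 4, all higher, in DESeq2, 2, both higher, in voom with quality weights, 0 with the immune covariate, and 2, of which 1 lower (Myc), with the skeletal muscle covariate. With 1 tumour left out, 1 to 4 of the 10 were called, 1 to 4 higher and 0 to 1 lower. Over all genes, 309 were called with the immune covariate, 232 higher and 77 lower, and 1289 to 2331 with 1 tumour left out, 786 to 1201 higher and 489 to 1130 lower. Of the related genes, 5 were called with the immune covariate, 5 higher and 0 lower. Without a filter 4 were lower, and with the luminal covariate 26 were higher. With 1 tumour left out 16 to 25 were called, 12 to 17 higher and 4 to 11 lower. Correlations that passed numbered 0 without the 2 tumours farthest from the median, a construction with fewer tumours. Marker lists that differed numbered 3 to 10 with 1 tumour left out. Of 1296 values of 48 named genes under alternatives, 72 lost a call, 26 gained one and 12 turned in sign, none of them called. Log2 fold changes that turned were those of Mlx (-0.0124), Fbp1 (0.1298) and Aspscr1 (0.0466) with the immune covariate, Traf7 (-0.0081) and Jun (0.0321) with the luminal covariate, and Fbp1 (0.0501) and Aspscr1 (0.0133) with the skeletal muscle covariate. With 1 tumour left out Fbp1 ran from -0.1816 to 0.0284, Aspscr1 from -0.0397 to 0.0133 and Jun from -0.3421 to 0.0587. Except where stated, the cause was not tested. The 20 likeness values recomputed under settings added after the data were seen stayed within their intervals. No paired analysis was possible because the labels give the tumours no shared numbers. Counts of 143 or more per tumour lie behind every value of the 10 genes.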
